A study of Mus musculus with 62 samples.

Results

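The genes described here are 7 subunits of the GABA-A receptor, Gabra2, Gabra3, Gabra4, Gabra5, Gabrb1, Gabrb2 and Gabrd. They were chosen by name, as the counted genes whose Ensembl identifiers map to these symbols, and 7 of the 7 were found among the 11121 genes counted. BRB-seq, a bulk RNA sequencing method that primes at the poly(A) tail and barcodes each sample before pooling, was applied to 2 mouse brain regions, the nucleus accumbens (NAc) and the prefrontal cortex (PFC). All mice were wild-type C57BL/6j males aged 15 weeks at tissue collection. The control groups (PFC CTR, n = 15 libraries, and NAc CTR, n = 16) came from unstressed mice. The stressed groups (PFC mCRS, n = 15, and NAc mCRS, n = 16) came from mice put through multimodal chronic restraint stress, a daily confinement in a tube under light, noise, odor and other conditions that changed from day to day. Each library held tissue from 1 hemisphere of 1 mouse, and both regions were taken from the same animals. Which PFC and which NAc library belong to one mouse was not labelled, so the libraries were treated as independent.

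GABA-A receptors are chloride channels that open when the inhibitory transmitter GABA binds, and each is built from a ring of subunits, typically α and β subunits together with a γ or a δ subunit. The α subunit sets much of the receptor's pharmacology and location. The α2 and α3 subunits are found mostly at synapses, whereas receptors with α5, or with α4 and δ, lie largely outside synapses and carry tonic inhibition. The β subunits complete the GABA binding site and are needed for the receptor to reach the membrane. The output neurons of the PFC are glutamatergic pyramidal cells, while those of the NAc are GABAergic projection neurons.

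The 7 genes lie on 5 chromosomes of GRCm38, most of them beside other subunit genes. On chromosome 5, Gabra2 (ENSMUSG00000000560, 70957597 to 71095849) and Gabra4 (ENSMUSG00000029211, 71569749 to 71658308) are on the minus strand, followed by Gabrb1 (ENSMUSG00000029212, 71658113 to 72149037) on the plus strand. Gabra4 and Gabrb1 run away from each other and overlap by 196 bases at their 5′ ends. Gabra5 (ENSMUSG00000055078) covers chromosome 7, 57407672 to 57510059, on the minus strand. An annotated antisense gene, Gm9962 (57387272 to 57409941), overlaps an exon at the 3′ end of Gabra5, where reads primed at the poly(A) tail mostly fall. Whether reads were counted by strand was not given in the sources used here, and without strand the reads of such overlapping genes cannot be told apart. Gabra3 (ENSMUSG00000031343) covers chromosome X, 72432681 to 72656848, on the minus strand, between Gabre and Gabrq. Gabrb2 (ENSMUSG00000007653) covers chromosome 11, 42419757 to 42629028, on the plus strand. Gabrd (ENSMUSG00000029054), at chromosome 4, 155384980 to 155398112, on the minus strand, is the only member without another subunit gene close by.

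RefSeq promoter sequences (GRCm38.p6) were at hand for 6 of the 7 genes, all but Gabrd. The 250 bases before the start are shown for Gabra3, the member whose count differed between regions, and for Gabra2, the member whose difference was nearest to 0 in control mice. The capitals mark CG dinucleotides. The Gabra3 window is chrX:72656920-72657169 and the Gabra2 window is chr5:71095850-71096099, both on the minus strand and written 5′ to 3′.
Gabra3: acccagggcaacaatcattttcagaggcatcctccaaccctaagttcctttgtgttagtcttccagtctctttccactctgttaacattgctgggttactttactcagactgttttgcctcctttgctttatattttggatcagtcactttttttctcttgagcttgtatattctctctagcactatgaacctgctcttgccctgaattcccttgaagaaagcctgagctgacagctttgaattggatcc
Gabra2: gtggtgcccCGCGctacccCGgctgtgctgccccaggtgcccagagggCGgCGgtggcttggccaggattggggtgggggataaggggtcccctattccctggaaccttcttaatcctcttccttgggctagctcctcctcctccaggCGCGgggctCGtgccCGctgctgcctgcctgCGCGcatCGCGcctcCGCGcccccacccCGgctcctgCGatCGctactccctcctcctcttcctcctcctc
The Gabra3 window held 0 CG dinucleotides and 42.4% G and C, and the Gabra2 window held 18 CG and 70.0%. Over 32851 RefSeq promoters the median was 6 CG and 52.4%, and 7.87% had 0 CG. The first listed promoters of Gabra4, Gabra5, Gabrb1 and Gabrb2 held 12, 9, 18 and 8 CG. The palindromic cyclic AMP response element TGACGTCA and the Egr site GCGTGGGCG were searched on both strands of the listed promoters, with 50 bases after the start included. They were found in 0 of the members' promoters, and in 1.79% and 0.612% of all promoters. Other motifs searched did have hits. GGGCGG was found for Gabra2, Gabra4 and Gabrb2, TATAAA for Gabra3 and Gabrb2, and TGACG for Gabrb2. These 3 were found in 35.7%, 13.6% and 20.8% of all promoters. The glucocorticoid response element was found in 0 of the members' promoters and in 0.00913% of all. These letters describe the windows and do not bear on whether a factor acts there.

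Total counts ranged from 945286 to 4857359 per library, and between 69.7% and 97.4% of the listed genes had a count in a library. Marker genes fitted the labelled regions in all libraries but 1. The summed level of 8 cortical excitatory neuron markers was 931 to 1906 CPM (counts scaled to the library total) in the PFC and 17.3 to 678 in the NAc. The sum of 10 striatal projection neuron markers was 314 to 1335 CPM in the PFC and at least 2903 CPM in the NAc, except for NAc CTR 7, where it was 560 CPM. The library labelled NAc CTR 7 also had 2624 CPM of 3 hypothalamic markers, against at most 859 CPM in any other library. NAc mCRS 10 held 22890 CPM of 2 choroid plexus markers, against at most 325 CPM elsewhere. Log2 fold changes of the subunits from fits with these libraries are also given without them.

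**Figure D1:**
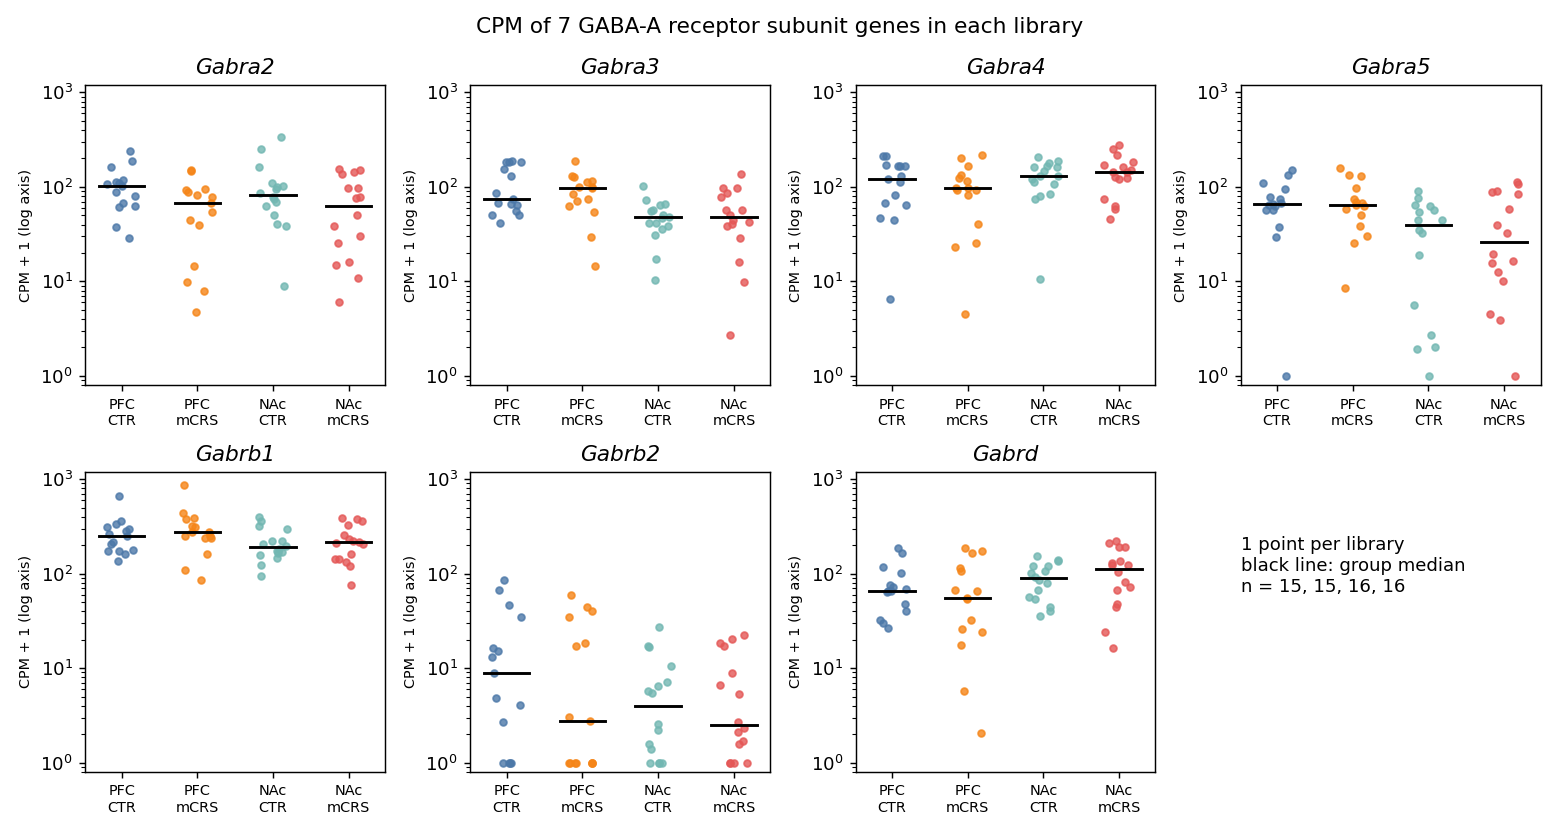
CPM after TMM scaling, plus 1 (log axis), of each of the 7 subunit genes, with 1 point per library and the group median as a black line. In all 7 panels the 4 groups overlap. Within each treatment the NAc medians of Gabra2, Gabra3, Gabra5, Gabrb1 and Gabrb2 lie below those of the PFC, and those of Gabra4 and Gabrd lie above. Gabrb2 has libraries with 0 counts in every group.

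Of the α subunits at synapses, Gabra3 was the member whose level differed between the regions. In PFC CTR libraries Gabra3 had 40.7 CPM at the lowest, 72.6 at the median and 188 at the highest. In NAc CTR libraries the lowest, median and highest values were 9.34, 46.6 and 102 CPM. The NAc values were mostly the lower ones, with 15 of 16 below the PFC median, although the ranges overlapped. In PFC mCRS libraries Gabra3 lay between 13.7 and 188 CPM with a median of 95.3, and in NAc mCRS libraries between 1.69 and 136 with a median of 46.6. After mCRS, 13 of 16 NAc libraries were below the PFC median.

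Gabra2 overlapped between the regions, with a wider range in NAc CTR than in PFC CTR libraries. Its lowest, median and highest values were 27.7, 101 and 239 CPM in PFC CTR and 3.77, 66.8 and 150 CPM in PFC mCRS libraries. In the NAc they were 8.00, 80.4 and 334 CPM in CTR and 5.08, 62.5 and 155 CPM in mCRS libraries. In CTR mice 12 of 16 NAc libraries lay below the PFC median, and in mCRS mice 8 of 16. In the PFC, 13 of 15 mCRS libraries lay below the CTR median.

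The α subunits of receptors outside synapses did not share one pattern. Gabra5 ranged from 0 to 150 CPM in PFC CTR (median 65.3) and from 7.46 to 157 CPM in PFC mCRS libraries (median 63.9). In the NAc it ranged from 0 to 89.3 CPM in CTR (median 38.4) and from 0 to 111 CPM in mCRS libraries (median 25.0). Thus 14 of 16 NAc CTR libraries were below the PFC median, yet the highest NAc values lay well inside the PFC range. Gabra5 had no count in PFC CTR 5, NAc CTR 8 and NAc mCRS 6, and 3 counts, the limit that a count of 0 allows, would be 1.98, 1.24 and 2.81 CPM there. Such limits and all count-based errors cover counting error only, since read copies were not told apart by molecular identifiers.

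Gabra4, which pairs with δ in many extrasynaptic receptors, had a median of 121 CPM in PFC CTR (range 5.50 to 209) and 96.6 in PFC mCRS libraries (range 3.49 to 214). In the NAc the medians were 129 CPM in CTR (range 9.52 to 207) and 143 in mCRS libraries (range 44.7 to 277). Gabrd, the δ subunit, followed the same order of medians, with 64.7 CPM in PFC CTR (range 25.4 to 185), 54.4 in PFC mCRS (range 1.04 to 184), 87.9 in NAc CTR (range 34.6 to 153) and 112 in NAc mCRS libraries (range 15.3 to 221). For both genes 12 of 16 NAc mCRS libraries lay above the PFC mCRS median, and the ranges of neighbouring groups overlapped.

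Of the β subunits, Gabrb1 had counts in every library. Its CPM values were 134 to 665 in PFC CTR (median 247), 83.8 to 870 in PFC mCRS (median 272), 94.1 to 401 in NAc CTR (median 188) and 75.4 to 389 in NAc mCRS libraries (median 213). In each treatment 12 of 16 NAc libraries were below the PFC median. Gabrb2 was sparse, with 655, 369, 343 and 301 counts in all over the PFC CTR, PFC mCRS, NAc CTR and NAc mCRS libraries. It had no count in 4 of 15, 7 of 15, 4 of 16 and 4 of 16 libraries of these groups, where 3 counts would be 0.981 to 2.87 CPM. Its medians were 7.94, 1.76, 3.01 and 1.52 CPM in the same order, and its highest values 84.3, 58.0, 26.3 and 21.2 CPM. A single library, PFC CTR 4, held 34.1% of the Gabrb2 counts of its group, while the highest CPM was in PFC CTR 5.

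The spread between libraries was wider than counting error for every member. Within groups the CPM values varied with a coefficient of variation from 39.5% (Gabra4 in NAc CTR) to 141% (Gabrb2 in PFC mCRS), while counting error alone gives 3.78% (Gabrb1 in NAc CTR) to 23.1% (Gabrb2 in NAc mCRS). The biological coefficient of variation estimated by edgeR was 0.46 for Gabrb1, 0.62 for Gabra4, 0.67 for Gabra3, 0.71 for Gabrd, 0.76 for Gabra2, 0.97 for Gabra5 and 1.86 for Gabrb2. The median over 11025 genes was 1.08, and the 6 subunits below it also had a higher mean log2 CPM than 63.3% to 94.1% of these genes, so a comparison with that median does not separate spread from level. Each p-value below sets a group difference against the spread between libraries, in which mice and preparations are joined. In the region contrasts both regions came from the same mice, and the unpaired fits do not set the spread between mice apart.

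To ask where the subunits differ between the regions, NAc was contrasted with PFC in unstressed mice, and negative log2 fold changes are lower in the NAc. Across all 9932 genes tested with edgeR's quasi-likelihood test, 4.23% were lower and 2.09% were higher in the NAc at a Benjamini-Hochberg FDR below 0.05. Of the 7 subunits 1 was lower and 0 were higher, and DESeq2 gave the same counts of 1 and 0. At an unadjusted p below 0.05 there was also 1 lower and 0 higher, against 8.79% lower and 6.22% higher over all genes tested. The median log2 fold change of the 7 was -0.31, against 0.02 over all genes tested.

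Gabra3 was the subunit that was lower in the NAc, at -1.13 on the log2 scale (standard error, SE, 0.33, FDR = 0.0212), a level 2.18-fold lower than in the PFC with a 95% interval of 0.292 to 0.720 for the NAc to PFC ratio. The call held in 30 of 31 fits that left out 1 library, and without PFC CTR 15, the library of highest Gabra3, the FDR was 0.0511 at a log2 fold change of -1.04. Without the library labelled NAc CTR 7 the values were -1.09 and 0.0313. With each library's share of detected genes as a covariate it was -1.01 (FDR = 0.0708), and over 11 alternative settings the FDR ran from 0.00599 to 0.171. That share ranged from 80.1% to 94.6% in PFC CTR and from 71.6% to 97.4% in NAc CTR libraries.

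The other 6 subunits did not pass the test in unstressed mice. Gabra5 had -0.97 on the log2 scale (SE 0.54, unadjusted p = 0.0790, FDR = 0.425). Gabrb2 had -1.71 with a SE of 0.96 and an interval from -3.63 to 0.21. Gabrb1 had -0.31 (interval -0.72 to 0.10), and it was -0.14 without PFC CTR 5. Gabra4 and Gabrd had 0.14 (interval -0.47 to 0.75) and 0.22 (interval -0.40 to 0.84). Gabra2 had -0.001 (interval -0.66 to 0.66), and its sign turned under several settings. Without NAc CTR 7, Gabra5 had -1.08, Gabrb2 -1.64, Gabrb1 -0.40, Gabra4 0.17, Gabrd 0.28 and Gabra2 -0.06, and these 6 again did not pass.

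**Figure D2:**
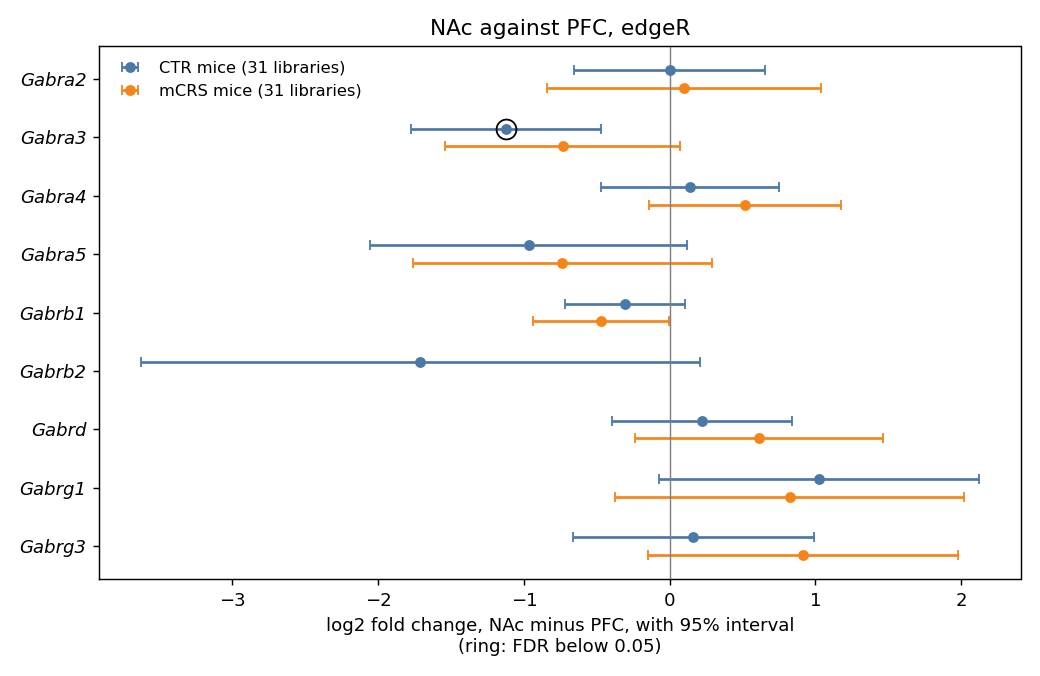
Log2 fold change of NAc against PFC (x axis) with 95% intervals for the 7 subunits and for Gabrg1 and Gabrg3, in CTR and in mCRS mice, where a ring marks an FDR below 0.05. Gabra3 is ringed in CTR mice at -1.13, no other point is ringed, and Gabrb2 has no mCRS point because it did not pass the filter on low counts.

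The same contrast was made in stressed mice, whose libraries are separate from those of the controls. Of 9452 genes tested, 4.23% were lower and 2.07% higher in the NAc. Gabrb2 did not pass the filter on low counts, and 0 of the 6 remaining subunits passed the FDR threshold with edgeR or with DESeq2, while 1 was lower and 0 were higher at an unadjusted p below 0.05, against 8.78% and 5.98% over all genes tested. That 1 was Gabrb1, at -0.47 (SE 0.23, unadjusted p = 0.0485, FDR = 0.334). Gabra3 had -0.74 (SE 0.40, FDR = 0.415), and Gabra5 -0.74 (SE 0.51). Gabra4 and Gabrd had 0.52 (SE 0.33) and 0.61 (SE 0.42). Gabra2 had 0.10 (SE 0.47). Without NAc mCRS 10, Gabra3 had -0.71, Gabra5 -0.65, Gabrb1 -0.48, Gabra4 0.44, Gabrd 0.67 and Gabra2 0.17, again with 0 subunits past the threshold. The difference between the CTR and the mCRS value of Gabra3, tested as the interaction over 62 libraries, was 0.38 (SE 0.51, unadjusted p = 0.453).

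A fit with treatment as a term, chosen after seeing the data, used all 62 libraries for the region contrast. It tested 11025 genes, of which 6.61% were lower and 4.41% higher in the NAc, and 1 of the 7 subunits was lower and 0 were higher. Gabra3 fell by 0.93 on the log2 scale (SE 0.25, FDR = 0.00613), and without NAc CTR 7 and NAc mCRS 10 by 0.90 (FDR = 0.0103), while Gabra5 then had -0.86, Gabrb1 -0.43, Gabrb2 -1.38, Gabra4 0.31, Gabrd 0.48 and Gabra2 0.06 with none of these past the threshold. Gabra5 had -0.84 (unadjusted p = 0.0283, FDR = 0.163) and Gabrb1 -0.38 (unadjusted p = 0.0189, FDR = 0.124), so neither passed the adjusted threshold. Gabrb2 had -1.47 (SE 0.74), Gabra4 0.33, Gabrd 0.42 and Gabra2 0.06. All 7 estimates came from the libraries already used in the separate contrasts and are no further evidence.

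Summed markers of some other cell types also differed in level between the 2 regions. The sum of 7 oligodendrocyte markers was 1506 to 6129 CPM in PFC CTR and 5439 to 8798 CPM in NAc CTR libraries. For 6 astrocyte markers it was 1053 to 1735 and 1595 to 2491 CPM. The sums of 6 microglia markers overlapped widely, at 106 to 481 and 172 to 513 CPM. Those of 5 endothelial markers had medians of 223.4 and 235.5 CPM. For 8 interneuron markers the sum was 885 to 1806 and 1438 to 2532 CPM, with Chat at 0 in every PFC CTR library. That list includes Gad1 and Gad2, which are not particular to interneurons in the NAc, where the projection neurons are GABAergic too. With TMM scaling, which the marker sums lack, Gad1 had a median of 285 CPM in PFC CTR and 507 in NAc CTR libraries, and Gad2 146 and 735. The interneuron sum therefore does not show that the NAc held more interneurons. The part of these mixtures in the Gabra3 difference was not tested. In bulk tissue, fewer cells of a type and less RNA per cell cannot be told apart.

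The 4 α subunit genes among the members were also compared as shares of their own summed counts in a library, which removes the library total. The 4 shares add up to the whole, so a fall of 1 gene raises the shares of the others without a change in those genes. These shares describe counts of 3′ reads and not protein, they rest on 217 to 1729 counts per library, and they were not tested. Gabra4 made up a median of 31.7% of these counts in PFC CTR (range 1.43 to 54.5%) and 43.6% in NAc CTR libraries (range 2.47 to 79.0%). In mCRS libraries the medians of Gabra4 were 32.0% in the PFC and 48.7% in the NAc. Gabra3 had the opposite order, with medians of 22.6% in PFC CTR (range 9.62 to 51.3%) and 15.1% in NAc CTR libraries (range 4.50 to 28.0%), and of 26.2% and 16.7% in mCRS libraries. The shares of the regions overlapped for each gene. The medians of Gabra2 were 23.0% in PFC CTR and 27.7% in NAc CTR libraries, and those of Gabra5 18.4% and 13.4%. In NAc CTR 4, Gabra2 alone took 86.5% of these counts.

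**Figure D3:**
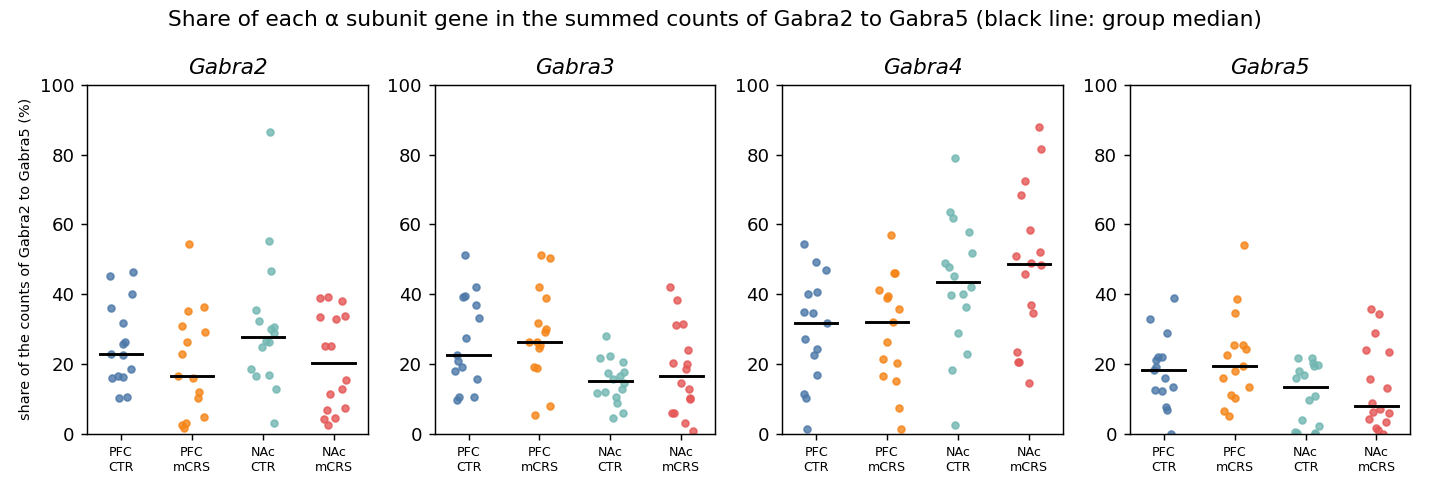
Share (%, y axis) of each of the 4 α subunit genes Gabra2 to Gabra5 in their summed counts, 1 point per library and the group median as a black line. The median share of Gabra4 is larger in the NAc than in the PFC (43.6% and 31.7% in CTR) and that of Gabra3 smaller (15.1% and 22.6% in CTR), with overlapping points. The 4 shares of a library add up to the whole and are not independent.

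To ask whether chronic stress moved the subunits, mCRS was contrasted with CTR in each region. In the PFC, 0% of 8916 genes passed an FDR below 0.05, and 3.50% had an unadjusted p below 0.05. Of the 7 subunits 0 passed with edgeR at either threshold. DESeq2 gave an adjusted p for 1 of them and called 0. In the NAc, 0.00986% of 10141 genes passed the FDR threshold and 2.04% had an unadjusted p below 0.05, and again 0 of 7 subunits passed with edgeR at either threshold or with DESeq2. The 1 gene called in the NAc was no subunit, and the count was 0 without the 2 libraries that stand apart. The median log2 fold change of the subunits was -0.19 in the PFC and 0.17 in the NAc, against -0.008 and -0.006 over all genes tested.

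Gabra2, an α subunit gene long studied in anxiety and alcohol dependence, had the smallest p of the 7 in both regions. Its log2 fold change after mCRS was -0.66 in the PFC (SE 0.40, interval -1.47 to 0.15, unadjusted p = 0.107). In the NAc it was -0.57 (SE 0.39, interval -1.34 to 0.20, unadjusted p = 0.145), and -0.33 without NAc CTR 4, the library of highest Gabra2. Neither value passed the test, and both intervals include 0. With NAc CTR 7 left out the NAc value was -0.49, and with NAc mCRS 10 left out as well -0.43.

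For the remaining subunits the intervals bound how large a change could have gone unseen. Gabrb1 was the tightest, with 0.22 in the PFC (interval -0.25 to 0.69) and 0.06 in the NAc (interval -0.35 to 0.46). Gabra4 had -0.21 (interval -0.96 to 0.55) and 0.17 (interval -0.34 to 0.68). Gabra3 had -0.19 (interval -0.85 to 0.47) and 0.19 (interval -0.62 to 0.99). Gabrd, whose product forms neurosteroid-sensitive receptors, had -0.07 (interval -0.96 to 0.83) and 0.32 (interval -0.28 to 0.91). Gabra5 had 0.01 (interval -0.84 to 0.86) and 0.24 (interval -0.97 to 1.44). For Gabrb2 the intervals ran from -2.48 to 1.66 and from -1.71 to 1.88, so changes of severalfold in this sparse gene were not detectable. Without NAc CTR 7 and NAc mCRS 10, the NAc values were 0.43 for Gabra5, 0.14 for Gabrb1, 0.07 for Gabra4, 0.18 for Gabra3, 0.10 for Gabrb2 and 0.33 for Gabrd, and 0 of the 7 subunits passed.

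**Figure D4:**
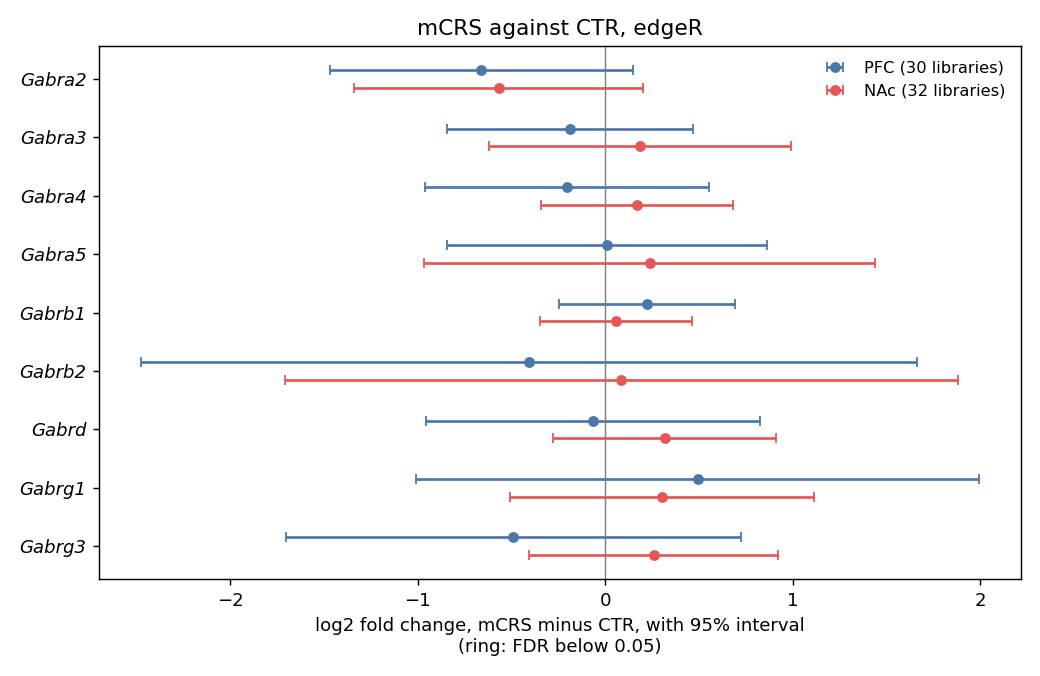
Log2 fold change of mCRS against CTR (x axis) with 95% intervals for the 7 subunits and for Gabrg1 and Gabrg3 in the PFC and the NAc, where a ring would mark an FDR below 0.05. All 7 subunits have intervals that include 0 in both regions, and the widest are those of Gabrb2.

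Whether stress acted differently in the 2 regions was tested gene by gene as the interaction of region and mCRS over 62 libraries, where a positive value means a higher mCRS to CTR ratio in the NAc. Of 11025 genes, 0.00907% had an FDR below 0.05 and 3.09% an unadjusted p below 0.05. Of the subunits, 0 of 7 passed either threshold with edgeR, and 0 of 7 passed with DESeq2. The smallest unadjusted p was 0.410 for Gabra4, at 0.38 (SE 0.46, interval -0.53 to 1.30). For Gabra2, which had negative values in both regions, the interaction was 0.10 (interval -1.03 to 1.24). Without NAc CTR 7 and NAc mCRS 10 the interaction was 0.28 for Gabra4 and 0.26 for Gabra2, the other 5 lay between -0.06 (Gabrb1) and 0.53 (Gabrb2), and 0 of 7 passed.

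Of the other GABA-A subunit genes, Gabrg1, Gabrg3, Gabre and Gabrq were looked at beside the members, while Gabra6, Gabrp and the Gabrr genes were not analysed here. Gabre and Gabrq did not pass the filter on low counts in CTR mice. Gabre had 266 counts in all over NAc CTR and 1 over PFC CTR libraries, and 15 and 0 over the mCRS libraries. Gabrq had 929 and 142 over CTR, and 953 and 83 over mCRS libraries. These totals are not scaled for depth, and the region differences of these 2 genes were not tested within CTR or within mCRS mice. Gabrg1 and Gabrg3, both γ subunits, had region differences in CTR mice of 1.02 (SE 0.55, FDR = 0.392) and 0.16 (SE 0.41, FDR = 0.946). With edgeR, 0 of these 2 passed the FDR threshold and 0 had an unadjusted p below 0.05, and 0 passed with DESeq2. The edgeR fit with treatment as a term tested 3 of the 4 other subunit genes, and 0 passed (smallest FDR = 0.0765). In that fit 2 were higher and 0 lower in the NAc at an unadjusted p below 0.05. Over all 11025 genes tested there, 1100 were higher and 1231 lower at that level. After mCRS, Gabrg1 had 0.49 in the PFC and 0.30 in the NAc, and Gabrg3 -0.49 and 0.26, and the intervals of all 4 values include 0.

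The wider GABA pathway list held 52 genes, 45 of them counted, and its region differences lay mostly in genes for the transmitter itself. In CTR mice 42 genes were tested, of which 7 were higher and 1 lower in the NAc with edgeR and with DESeq2. With edgeR these were 16.7% higher and 2.38% lower, against 2.09% and 4.23% of all genes tested, so only the higher share exceeded that of all genes. The median log2 fold change of the 42 was 0.25. Of 7 tested genes for GABA synthesis, packing, uptake and breakdown, 6 were higher and 0 lower. The largest of these were Gad2, which makes GABA, at 2.18 (FDR = 1.7e-12), Slc32a1, which loads GABA into vesicles, at 2.08 (FDR = 1.1e-08), and Slc6a11, an astrocyte GABA transporter, at 2.05 (FDR = 0.00415). Gad1 and Gad2 are also on the interneuron marker list. Gabbr2, a subunit of the GABA-B receptor, was lower at -0.87 (FDR = 0.0122), alone among 4 tested GABA-B genes. Of 14 genes of receptor assembly and trafficking 1 was higher, Hap1, which aids the return of receptors to the membrane, at 2.30 (FDR = 6.5e-07).

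Genes that hold or move the receptor otherwise did not pass. Of 11 scaffold and synaptic partner genes, gephyrin (Gphn) included, 0 passed with edgeR or DESeq2, and 3 were higher and 0 lower at an unadjusted p below 0.05, where 6.22% of all genes tested were higher and 8.79% lower. Of 4 chloride transporter genes 0 passed with either tool, and 0 had an unadjusted p below 0.05. In mCRS mice 43 genes of the list were tested, with 6 higher and 1 lower in the NAc. These were 13.95% and 2.33%, against 2.07% and 4.23% of all genes tested. Gad2, Slc32a1, Gabbr2 and Hap1 passed there too, whereas Slc6a11 had 0.90 (FDR = 0.415), and the difference between its mCRS and CTR values, tested as the interaction, was -1.14 (SE 0.72, unadjusted p = 0.115). After mCRS, 0 of 41 pathway genes in the PFC and 0 of 44 in the NAc passed with edgeR or DESeq2, which gave an adjusted p for 6 of the PFC genes. At an unadjusted p below 0.05 with edgeR there was 1 in the PFC and 0 in the NAc, where 3.50% and 2.04% of all genes tested lay below it. The 1 was Nsf, an ATPase of membrane fusion, at -0.36 (unadjusted p = 0.0154, FDR = 0.9997). A count of 1 among 41 does not exceed the share over all genes.

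No common variation of the 7 subunits was seen from library to library. The spread between libraries was wide and pairs of other genes of like level were not compared, so low correlations do not show that common variation is absent. Over the 21 pairs of members, the correlation of log2 CPM within groups over 62 libraries ran from -0.43 to 0.24 with a median of 0.03. The lowest was that of Gabrb1 and Gabrd and the highest that of Gabra2 and Gabra3. For the neighbouring genes of chromosome 5, r was -0.34 for Gabra2 and Gabra4, 0.04 for Gabra4 and Gabrb1 and 0.03 for Gabra2 and Gabrb1. The genes most like each member over the 62 libraries were, by Pearson's r of log2 CPM, Usp4 for Gabra2 (0.50), Elavl4 for Gabra3 (0.63), Maz for Gabra4 (0.57), Tubb2a for Gabra5 (0.60), Hecw1 for Gabrb1 (0.55), Mrpl24 for Gabrb2 (0.46) and Itm2c for Gabrd (0.61). The libraries share region differences, depth and scaling, so these r values are descriptive. Of the 21 genes in the 3 places nearest to each member, 0 were GABA-A subunits. Each member was compared with 11024 genes, few of them subunits, so this 0 does not bear on whether the subunits vary together.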

How the data were processed

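RNA of 62 libraries of mouse PFC and NAc was sequenced by BRB-seq. The authors mapped reads with STAR to GRCm38 (mm10), counted uniquely mapped reads per gene with HTSeq (version 0.9.1 in the submitters' processing notes), removed PFC samples of poor quality and deposited unnormalized counts. Counts of each region or treatment were fitted here with edgeR 4.0.16 (R 4.3.3), using TMM scaling, the default filter on low counts by group and the quasi-likelihood test. P-values were adjusted over all genes tested. CPM values of single genes used TMM scaling and log2 CPM a prior count of 2. The marker sums were scaled to the library total alone. The study's own tool was DESeq2 (here version 1.42.0), used as an alternative. The other alternatives were RLE scaling, no filter or at least 10 counts in 50% of the libraries, library sizes without mtDNA genes, one fit over all 62 libraries, a block for the replicate number, each library's share of detected genes or the numbering (to 8, and above) as a covariate, and each library left out. The tests were also run on simulated counts, drawn as independent libraries with the spread that edgeR had fitted. These held no pairing by mouse, so they do not bear on how pairing affects the region tests. Gene identifiers were named from the GENCODE annotation of GRCm38. Members and lists were chosen with earlier results of these data known. All members were named, and from the pathway list, per role, the 3 largest called differences between regions in CTR and every gene with an unadjusted p below 0.05 after mCRS. Gabrg1, Gabrg3, Gabre, Gabrq and Gphn were named after values were seen. Some genes of the pathway are not reported here.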

Additional observations from a re-analysis of the deposited data

How the results depend on the processing

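The call of Gabra3 between regions in CTR mice was kept in all but 2 of the settings other than leaving out a library. The 2 were each library's share of detected genes, with 0 members called, and the replicate block, with 0 called and -1.03 for Gabra3 (FDR = 0.171). Between regions, same-numbered libraries had r of -0.02 to 0.02 in CTR and -0.03 to 0.02 in mCRS mice, with 0 pairs above 0.1. No pair known to be of 1 mouse was at hand, so these r values cannot decide whether the numbers pair the libraries. The main fits were left unpaired because the labels give no pairs. Under the replicate block 1 gene of the PFC, 0 of the NAc and 0 of the interaction passed, and Gabrb2 had -0.058 after mCRS in the NAc, -1.81 in the PFC, -1.68 in the interaction and -0.61 between regions in CTR mice, where Gabra5 had -1.67. The region difference of Gabra2 in CTR mice turned positive with DESeq2 (0.073), RLE scaling (0.072), no filter (0.002), library sizes without mtDNA genes (0.002), all 62 libraries (0.01) and the detected share (0.11), and with treatments together (0.062, and 0.064 without the 2 libraries that stand apart). Those last fits called 1215 and 1190 genes, against 628. With the detected share, Gabra2 had -0.48 between regions in mCRS mice, and Gabrb1 had -0.011 and Gabrd 0.024 after mCRS in the PFC. The count of all genes called after mCRS was, in the PFC, 5 with DESeq2, 1 with no filter and 5 with all 62 libraries. In the NAc it was 0 with DESeq2, the detected share, the numbering and without the 2 libraries, and 2 with no filter or all 62. For the interaction it was 0 with at least 10 counts in 50% of the libraries. The causes were not tested.

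Leaving out 1 library gave 0 to 1 members and 581 to 642 genes called between regions in CTR, with Gabra2 from -0.23 to 0.14. After mCRS it gave 0 to 2 genes in the PFC, with Gabra5 from -0.12 to 0.12 and Gabrd from -0.23 to 0.089, and 0 to 1 genes in the NAc, with Gabrb1 from -0.018 to 0.16 and Gabrb2 from -0.17 to 0.47. Where a library had no Gabrb2 count (4 to 7 libraries of each group), levels under 0.981 to 2.87 CPM were not detectable.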
